A study of Mus musculus with 12 samples.

Results

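The abundance of 1448 gene symbols was ranked in RNA of macrophages of the mouse peritoneum from young animals that received no agent. The samples were chosen by their labels alone: the 3 of the 12 samples of the series whose titles begin with YV were used. Every measured gene was ranked by its mean log2 value over these 3 mice. The mice were 3 to 4 months old and the agent is given as none. The labels used here name no sex, strain or genotype, and no vehicle, and do not say what the V in the titles stands for. The other groups of the series, also 3 mice each, were young mice of the same age given PF-044 (2.5 mg/kg per day for 6 weeks by gavage) and aged mice of 20 to 22 months with or without it, and none of them was compared here. How the macrophages were separated from the other cells of the cavity is not stated there either.

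The resting mouse peritoneum holds a large population of macrophages that is seeded early in life, renews itself locally and depends on the transcription factor GATA6. Beside these large resident macrophages lie fewer small ones that derive from blood monocytes and carry more MHC class II, and the same fluid holds many B cells, including the B-1 lineage, with T cells and mast cells. Resident macrophages clear dying cells, make complement C1q and produce lipid mediators from arachidonic acid. The nCounter instrument counts barcoded probes bound to their transcripts without amplification, 1 value for each gene.

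Deposited values are normalized and on the log2 scale, and none lies below 20 on the linear scale, which is 4.32 on the log2 scale and is called the floor here. A gene at the floor was not measurable at this depth, which does not show that it was absent. Of the 1448 genes, 982 (67.8%) were above the floor in all 3 mice, 363 (25.1%) were at it in all 3, and 103 were above it in 1 or 2 mice. The median gene had a mean level of 6.48, the 100th gene 10.44, the 500th 7.79 and the 1000th 4.52. Levels above 12 were reached by 29 genes and levels above 10 by 146. Signal was concentrated in few genes: the 20 highest held 29.7% ± 0.25 (SD, n = 3) of the summed linear signal and the 60 highest 49.8% ± 0.45. The highest gene stood 187-fold above the median gene and 4.15-fold above the 30th. Ranks were much alike in the mice, with a Spearman correlation of 0.989 to 0.991 between pairs of mice over all genes.

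**Figure D1:**
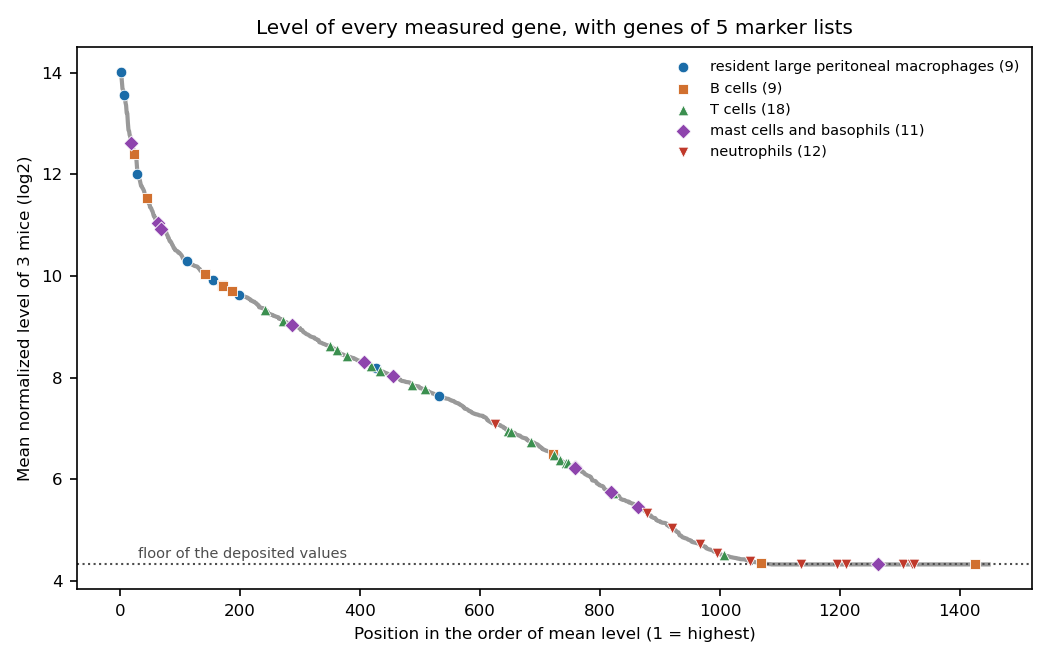
Mean normalized level (log2, y axis) of all 1448 genes against their position from highest to lowest (x axis), with the measured members of 5 marker lists drawn as symbols. The curve falls from 14.02 to the floor at 4.32, where positions have no meaning. The highest mast cell and B cell genes lie near the top beside resident macrophage genes while others of these lists reach the floor, and all neutrophil genes lie at 7.09 or below.

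The scale limits how finely these ranks can be read. Above the floor, the linear values were whole multiples of a constant step within each mouse, the pattern that scaled counts leave, and the steps fell into 3 sets of 604, 329 and 151 genes with a factor each. Division by the step gives count equivalents, inferred from the values, with a total of 733832 to 927614 per mouse. The floor corresponded to 17.6 to 26.8 of them. Over the genes above the floor in all 3 mice, the median gene of a set lay at 8.09, 7.44 and 7.81. The 30 highest genes came from all 3 sets, with 17, 7 and 6 genes. Since each gene has its own probe, a difference between genes includes the probes' efficiency. A view of probes and scaling together comes from 5 genes that the table holds under both a current and an older symbol. Where both symbols were above the floor, they lay in different gene sets, so the fold includes the scaling of the sets. Cd244a and Cd244, a receptor of natural killer and other cells, read 8.94 and 7.42, which is a 2.86-fold difference for the same gene. Chil3 and Chi3l3 differed by 1.59-fold, with 5.82 and 6.49. Pclaf read at least 2.14-fold higher than 2810417H13Rik, which was above the floor in 2 of the 3 mice. Hras had a mean of 7.93 while Hras1 was at the floor in all 3 mice, so Hras read at least 12.2-fold higher than its other symbol, and both symbols of Ptgdr2 were at the floor. Differences of this size between neighbours in the ranking are therefore not an order of transcript abundance.

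Fn1 had the highest mean value in the young untreated macrophages. It encodes fibronectin, a matrix and adhesion protein that resident peritoneal macrophages make in quantity, and read 14.07, 13.98 and 14.03 in mice 1, 2 and 3. Gapdh, the glycolytic enzyme often used as a reference gene, came next with 13.89, 14.04 and 13.99. Fn1 led in mice 1 and 3 and Gapdh in mouse 2, and the ranges of the genes overlapped. Gapdh took the first place when mouse 1 was left out, and also when genes were ranked by count equivalents, so that the values do not settle which of the genes is higher.

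Cd74, the invariant chain that guides MHC class II molecules to the endosome, ranked 3 with 13.91, 13.76 and 13.82. Retnla, a secreted resistin-like protein and a marker of alternative activation, read 13.55, 13.83 and 13.68. Alox15, the 12/15-lipoxygenase of resident peritoneal macrophages, read 13.57, 13.60 and 13.55, with the mice within 0.05 of each other. Apoe, the apolipoprotein that macrophages secrete for lipid efflux, read 13.43, 13.60 and 13.58. Tyrobp, the DAP12 adaptor of activating myeloid receptors, followed with 13.35, 13.48 and 13.42. Mouse 1 was the lowest for Retnla, Apoe and Tyrobp, and mouse 2 the lowest for Cd74.

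The rest of the 30 highest genes fell into a few classes. Housekeeping and cytoskeletal genes were the ribosomal protein gene Rplp0, the nucleolar gene Npm1, the LIM domain gene Crip1, the actin-severing cofilin gene Cfl1 and the small GTPase genes Cdc42 and Rhoa, with means from 12.33 for Rhoa to 13.67 for Rplp0. Genes of redox and iron handling were Trf for transferrin, Gpx1 for glutathione peroxidase and Txn1 for thioredoxin. Lysosomal proteases were Ctsd and Ctss, and the adhesion genes were Itgb1, Itgb2 and Itgam, which encode integrin chains, and Thbs1 for thrombospondin. MHC genes were H2-Aa of class II and H2-D1 and H2-K1 of class I. Fos and Dusp1 belong to the immediate-early genes, which are switched on within minutes of many stimuli, and Serinc3 encodes a membrane protein of the serine incorporator family. Cpa3, the mast cell carboxypeptidase, and Ms4a1, the gene of CD20 on B cells, completed the group at ranks 18 and 23. In all, 10 of the 30 were on a cell type list, and 29 of the 30 were among the 30 highest of every single mouse.

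**Figure D2:**
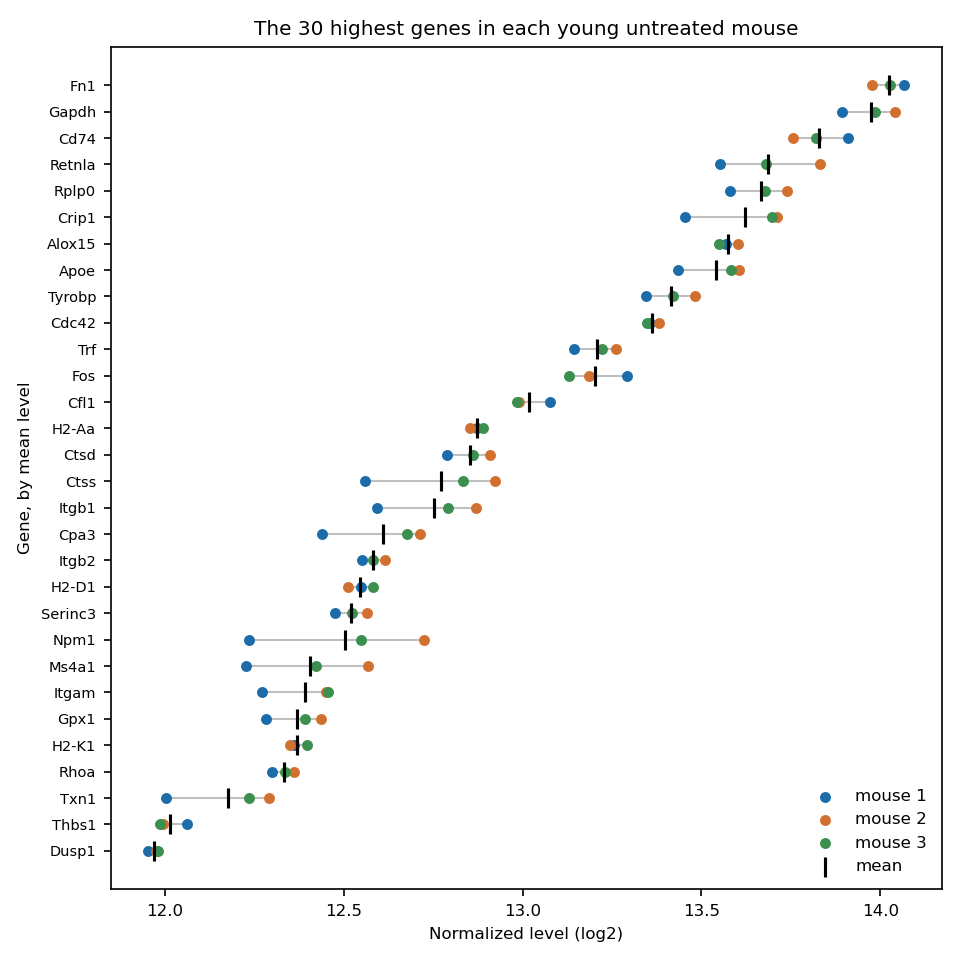
Normalized level (log2, x axis) of the 30 genes with the highest mean, ordered from top to bottom, with a dot for each mouse, a bar for the mean and a grey line over the range. Fn1 and Gapdh overlap at the top near 14, and Npm1 has the widest range, from 12.24 in mouse 1 to 12.73 in mouse 2.

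Order among neighbours was mostly within the spread of the mice. Of the 30 pairs of neighbours from rank 1 to rank 31, the ranges of 25 overlapped, and only 9 pairs kept their order in all 3 mice. The median difference between neighbours was 0.04. Non-overlapping neighbours were Cdc42 above Trf, Fos above Cfl1, Cfl1 above H2-Aa, Rhoa above Txn1 and Thbs1 above Dusp1. No test of an order was made, since 3 mice allow an exact two-sided paired permutation p of no less than 0.25. Scaling the 3 gene sets to a common median replaced Gpx1, Txn1 and Thbs1 by C1qb, C1qc and S100a4 and left 27 of the 30 in place. It also put H2-Aa (rank 11) above Cfl1 (rank 13) and Dusp1 (rank 22) above Thbs1 (rank 37). The order of these non-overlapping pairs thus depends on the scaling.

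Ranks 31 to 60 added further macrophage genes. Cebpb, a myeloid transcription factor, had a mean of 11.95, and the C1q chains C1qb, C1qc and C1qa had 11.92, 11.77 and 11.15. Ptprc, the pan-leukocyte antigen CD45, read 11.80, 11.86 and 11.82. Cybb, the catalytic subunit of the phagocyte NADPH oxidase, read 11.62, 11.82 and 11.78, and the lysosomal membrane gene Laptm5 had 11.69, 11.70 and 11.78. Other genes of this range were Rac1, the chemokine receptor gene Cxcr4, Ly86 (the MD-1 protein that pairs with RP105), the chemokine gene Ccl9 and Myc. The glycolytic genes Aldoa and Ldha lay here too, at 11.70 and 11.18.

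Promoter stretches are shown for a few genes at either end of the ranking, because the share of genes with a TATA hexamer ranged from 2.24% to 13.1% between level classes. RefSeq windows of 250 bases before to 50 bases after the start (build GRCm38.p6) matched 1120 genes on the panel. These windows were searched for CG dinucleotides and for the TATA hexamer TATAAA on the gene's strand within the 50 bases before the start. The stretches below are the 100 bases just before the annotated start, 5′ to 3′ on the gene's strand, with TATAAA and every CG in capitals. They are the 3 highest-ranked genes of the top 30 that hold the hexamer, then the pair of top-30 genes with the most CG in the window, then the alphabetically first pair of CC chemokine genes at the floor with the hexamer, each among genes with a single window.

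Retnla lies at chr16:48842509-48842608 (+), Fos at chr12:85473790-85473889 (+) and Cpa3 at chr3:20242182-20242281 (-).
Retnla: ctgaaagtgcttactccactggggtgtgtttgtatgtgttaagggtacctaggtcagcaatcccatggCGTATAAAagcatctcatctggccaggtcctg
Fos: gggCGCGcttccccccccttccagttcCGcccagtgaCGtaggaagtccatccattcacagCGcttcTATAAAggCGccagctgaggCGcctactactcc
Cpa3: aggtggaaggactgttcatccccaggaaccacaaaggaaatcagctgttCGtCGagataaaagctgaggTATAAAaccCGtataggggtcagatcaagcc

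Their hexamers begin 30, 33 and 31 bases before the start. The window of Retnla holds 2 CG dinucleotides and that of Cpa3 3, while that of Fos holds 20. Ctsd at chr7:142387828-142387927 (-) and Dusp1 at chr17:26508473-26508572 (-) have no match to the hexamer and 33 and 31 CG dinucleotides in their windows.
Ctsd: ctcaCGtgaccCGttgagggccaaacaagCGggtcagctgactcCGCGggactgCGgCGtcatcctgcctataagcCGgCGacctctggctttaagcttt
Dusp1: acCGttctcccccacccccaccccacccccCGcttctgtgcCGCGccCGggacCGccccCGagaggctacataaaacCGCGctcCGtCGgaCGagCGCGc

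Ccl12 at chr11:82101745-82101844 (+) and Ccl8 at chr11:82115085-82115184 (+) encode monocyte-attracting chemokines and were at the floor in all 3 mice. Each has 2 CG dinucleotides in its window, and the hexamers begin 31 and 32 bases before the start.
Ccl12: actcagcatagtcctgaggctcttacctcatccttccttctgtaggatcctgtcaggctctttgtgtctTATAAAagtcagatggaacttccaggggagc
Ccl8: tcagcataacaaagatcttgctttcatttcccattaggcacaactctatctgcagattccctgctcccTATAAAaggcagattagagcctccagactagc

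Across level classes, the hexamer was found in 8 of 69 matched genes of ranks 1 to 100 (11.6%), in 7 of 313 of the next 400 ranks (2.24%), in 21 of 464 lower genes above the floor in a mouse (4.53%) and in 36 of 274 genes at the floor in all 3 mice (13.1%). Among all 27025 genes of the RefSeq table the share was 3.15%. The same hexamer on the other strand (TTTATA) was found in 2.90%, 0.319%, 0.647% and 2.19% of these classes and in 1.29% of all genes of the table, so the gene's strand held more matches in each class. Median CG counts per window were 17, 19, 14 and 7 in the order of the classes, and 7 over all genes of the table. As a description across 1120 genes, which are not independent, CG count and level had a Spearman correlation of 0.25, and of 0.17 over the 846 genes above the floor in a mouse. Genes on the panel are a chosen set, so these shares describe the panel as well as the levels, and no test was made. A match is a string of letters and not a shown binding site.

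**Figure D3:**
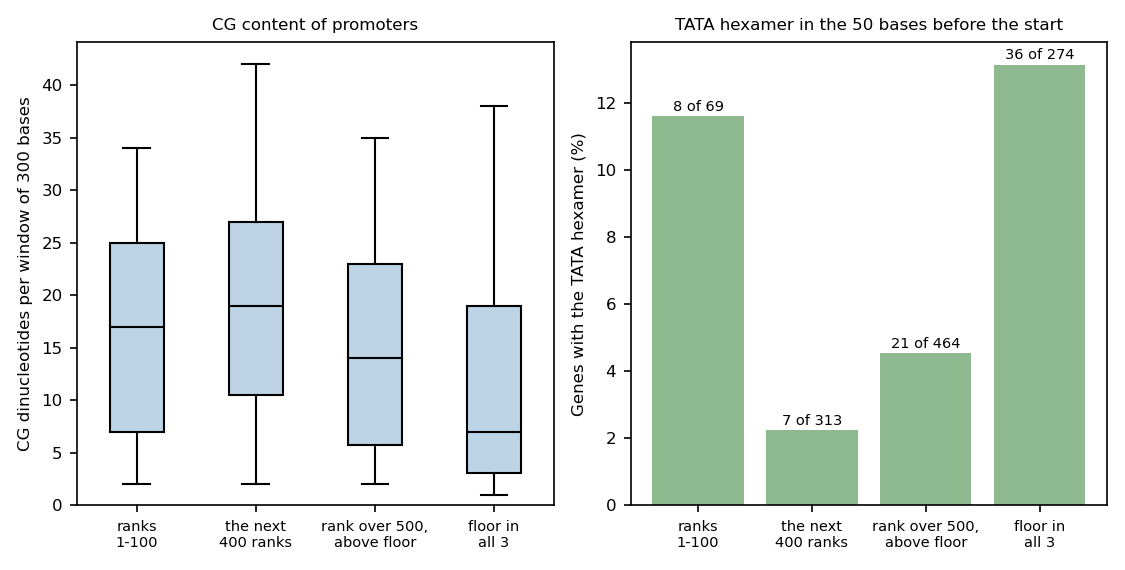
Left, CG dinucleotides per promoter window of 300 bases (y axis) by level class, with the median as a line, the quartiles as a box and whiskers from the 5th to the 95th percentile of genes. Right, the share of genes with the TATA hexamer in the 50 bases before the start, with the gene counts above the bars: the bars stand at 11.6% for ranks 1 to 100, 2.24% for the next 400 ranks and 13.1% for the floor genes.

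Markers of resident large peritoneal macrophages were measured for 9 genes, and none was at the floor, against 25.1% of all genes. Their median level was 9.92 against 6.48 for all genes, and 4 of the 9 were among the 145 highest genes, the top 10% of the ranking. After Fn1, Alox15 and Thbs1 came Cxcl13, a B cell attractant made by cavity macrophages, with 10.15, 10.38 and 10.34. Members named here beyond the highest 4 of a list were chosen after their values were seen. Selp, which encodes P-selectin, read 9.91, 9.92 and 9.93, and Tgfb2 read 9.68, 9.62 and 9.58. Timd4, the phosphatidylserine receptor of long-lived resident macrophages, read 8.18, 8.19 and 8.21. Gata6, the factor that defines these cells, had 7.60, 7.64 and 7.65, with the mice within 0.05 of each other. Wnt2 was the lowest of the list at 6.48. Gata6 itself ranked 531 and was above the floor in all 3 mice, while Fn1, Alox15 and Thbs1 ranked 1, 7 and 29. The list was chosen with earlier results of these data known, so its levels do not independently test the labelled cell type.

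General macrophage and myeloid genes gave 20 measured members, all above the floor in all 3 mice, against 67.8% of all genes. Their median was 10.52 and 11 were in the top 10%. Itgam, the CD11b chain, read 12.27, 12.45 and 12.46. Adgre1, the F4/80 antigen, read 11.01, 10.99 and 11.11, Cd68 10.52, 10.57 and 10.54, and Cd14, the co-receptor for lipopolysaccharide, 10.44, 10.60 and 10.49. Csf1r, the receptor for the macrophage growth factor, was lower at 9.34, 9.35 and 9.25. Mertk for uptake of dying cells (6.55), Trem2 (6.38), the Fc receptor gene Fcgr1 (6.07) and the haemoglobin scavenger gene Cd163 (5.06) closed the list.

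Monocyte and small peritoneal macrophage genes were above the floor in all 3 mice for 9 of 10 symbols, against 67.8% of all genes. Chil3 and Chi3l3 for the same gene were among these symbols, and the median of the list was 9.02. Retnla stood far above the others. Ccr2, the monocyte chemokine receptor, read 9.56, 9.66 and 9.60, and Irf4 9.25, 9.20 and 9.25. Mrc1, the mannose receptor, had a mean of 6.70, and Itgax, the CD11c chain, was at the floor in all 3 mice. Beside Retnla, the alternative activation genes Arg1 and Mrc1 lay at 8.43 and 6.70, so Retnla exceeded them on this scale while each value keeps its own probe's efficiency.

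Transcripts of other cavity cells were high as well. For mast cells, 10 of 11 measured genes were above the floor in all 3 mice, against 67.8% of all genes, and 3 were in the top 10%. Cpa3 read 12.44, 12.71 and 12.68. Cma1 for mast cell chymase read 11.01, 11.02 and 11.08, and Tpsb2 for tryptase 10.85, 10.97 and 10.97. Fcer1a, the IgE-binding chain of the high-affinity receptor, read 8.89, 9.10 and 9.13, followed by the histidine decarboxylase gene Hdc with a mean of 8.30 and the IL-33 receptor gene Il1rl1 with 8.03. The receptor gene Kit was low at 5.31, 5.74 and 5.34, and Hpgds was at the floor. The list held 1.59% to 1.73% of the summed signal of a mouse. In bulk RNA, few cells with much RNA of a gene and many cells with little cannot be told apart.

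B cell genes gave 9 measured members, with a median of 9.81 and 3 in the top 10%. Ms4a1 read 12.23, 12.57 and 12.42, with mouse 1 the lowest. Btk, Blk, Cxcr5 and Spib lay close together, at 10.05, 9.81, 9.81 and 9.71. Il5ra, the interleukin-5 receptor chain of B-1 cells and eosinophils, had a mean of 6.49. Fcer2a, the CD23 gene of conventional follicular B cells, was above the floor only in mouse 3 (4.39), and the plasma cell gene Tnfrsf17 was at the floor in all 3. Some of these genes, such as Btk, are also expressed by macrophages.

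T cell genes were lower, with a median of 7.36 over 18 members and none in the top 10%. None was at the floor in all 3 mice, against 25.1% of all genes. Ctla4 had the highest level at 9.36, 9.38 and 9.27, followed by Cd3d with 8.94, 9.31 and 9.10. Cd28 and Cd3g, a co-stimulatory receptor and a further chain of the antigen receptor complex, had means of 8.61 and 8.55. The lineage genes Cd4 and Cd8a stood at 6.93 and 6.31, and Foxp3 of regulatory T cells at 4.82, 4.37 and 4.32, which is the floor in mouse 3. Natural killer and cytotoxic genes had a median of 5.91 over 10 members. Nkg7 and Klrd1 led with 8.58 and 8.38, whereas Ncr1, Gzmb and Tbx21 lay between 4.53 and 5.14.

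Granulocyte genes were at or near the floor. Of 12 neutrophil genes, 6 were at the floor in all 3 mice, against 25.1% of all genes: Mpo, Elane, Camp, Ly6g, Mmp8 and Cxcr1. The highest was Csf3r, the G-CSF receptor, with 7.24, 6.88 and 7.15. S100a8 read 4.79, 5.58 and 5.65 and S100a9 4.38, 4.94 and 4.83, with mouse 1 lowest for both. The eosinophil genes Epx, Prg2 and Ear6 were at the floor in all 3 mice, and Ccr3 and Siglecf had means of 4.68 and 4.64. Neutrophil genes together held 0.03% to 0.04% of the summed signal.

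Dendritic cell genes were divided. Ccr7, the receptor of migrating dendritic cells and of lymphocytes, read 10.84, 10.70 and 10.72, and Tcf4, which B cells also express, had a mean of 9.62. Cd83 and Irf8 stood at 8.01 and 7.33. The genes of conventional type 1 dendritic cells Xcr1 and Clec9a were at the floor in all 3 mice, as was Itgax, and Batf3 had a mean of 4.45. Of 11 stromal, endothelial and epithelial genes, 10 were at the floor in all 3 mice, against 25.1% of all genes. Among the 10 were Pdgfra, Pdgfrb, Cdh5, Tek and Vcam1, and Col3a1 was above the floor only in mouse 2 (4.58). No gene of red cells or platelets from that list was on the panel.

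**Figure D4:**
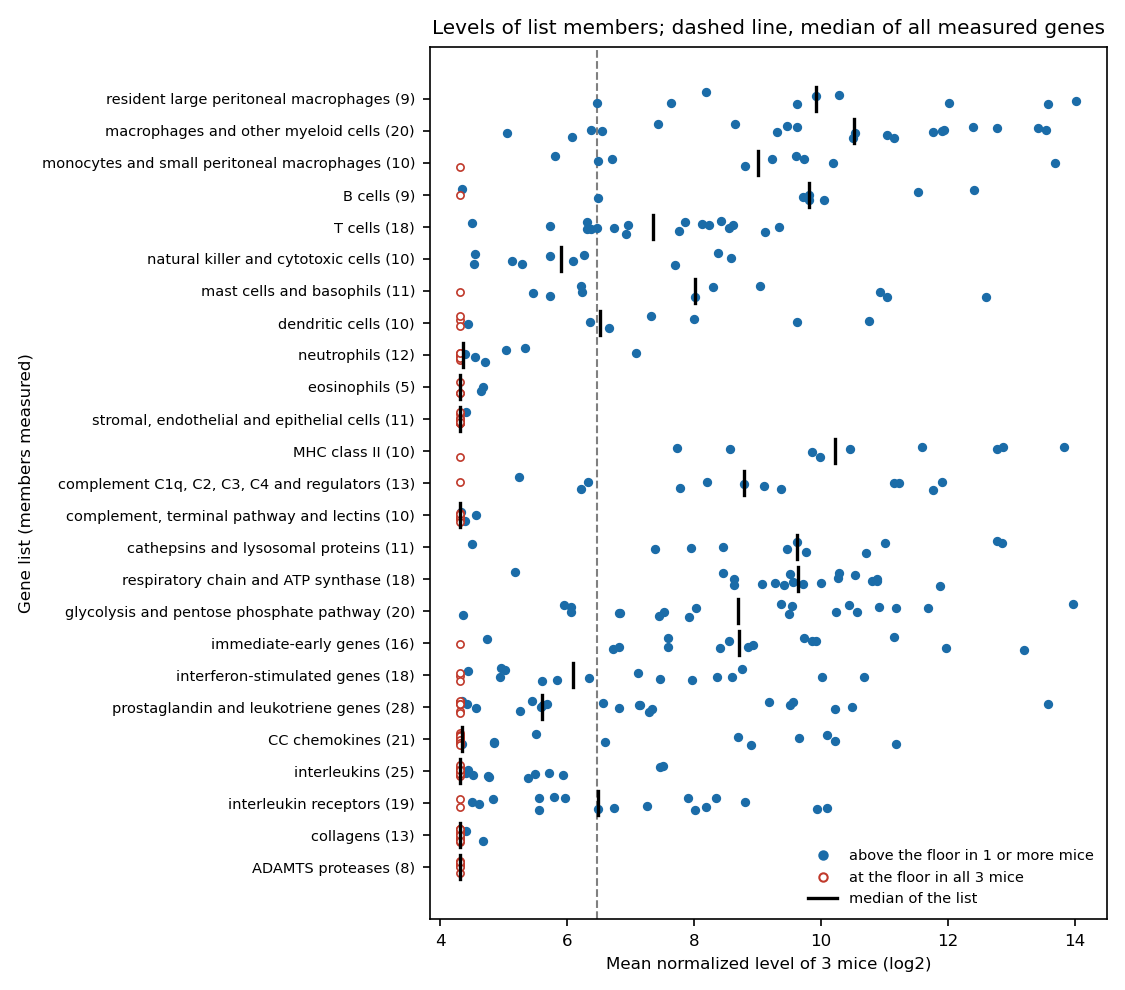
Mean normalized level (log2, x axis) of the measured members of 25 gene lists (y axis, with the number measured), filled where above the floor in a mouse and open where at the floor in all 3, with the median as a black bar. The medians of the macrophage, MHC class II and respiratory chain lists lie right of the dashed median of all genes, and ADAMTS proteases lie wholly at the floor.

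Genes of antigen presentation were among the highest. MHC class II gave 10 measured members with a median of 10.23, of which 5 were in the top 10%. After Cd74, H2-Aa, Ctss and H2-Ab1, the H2-Eb1 chain read 10.62, 10.33 and 10.42. H2-Aa itself read 12.87, 12.85 and 12.89. The peptide-loading genes H2-DMb2, H2-Ob, H2-DMa and H2-DMb1 ranged from 7.73 to 9.99, and the pseudogene H2-Ea-ps was at the floor. B cells express these genes too, and their part in the level was not tested. MHC class I genes and their peptide machinery had a median of 7.82 over 14 members: H2-D1 and H2-K1 stood at 12.55 and 12.37, the immunoproteasome gene Psmb8 at 9.45 and Tapbp for tapasin at 9.09, while H2-Q2 and H2-Q10 were at the floor. The H2 genes are close relatives, and the counts of a probe may include more than 1 of them.

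Complement was split by its steps. Of 13 genes for C1q, C2, C3, C4, regulators and receptors, 12 were above the floor in all 3 mice, against 67.8% of all genes. Their median was 8.79. C1qb read 11.92, 11.88 and 11.95, C1qc 11.72, 11.77 and 11.83 and C4a 11.20, 11.24 and 11.27. The anaphylatoxin receptor genes C3ar1 and C5ar1 had means of 9.10 and 8.79, Cfb and C3 8.20 and 7.79, and Cfd was at the floor. The proteases that complete the C1 complex were far lower than the C1q chains, with C1ra at 6.34 and C1s at 5.25. Of 10 genes of the terminal pathway and the lectin route, 7 were at the floor in all 3 mice, against 25.1% of all genes. These were C7, C8a, C8b, Hc, Masp1, Masp2 and Fcnb, while C6, C9 and Mbl2 were above the floor in 1 or 2 mice, none over 4.90.

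Sensors of microbes were mostly at middle levels. Toll-like receptors and their adaptors had a median of 7.84 over 13 members. Cd14 was followed by Tlr9 with 8.90, 8.61 and 8.71, by Ly96, the MD-2 partner of TLR4, with a mean of 8.29 and by Tlr4 itself with 8.06, 8.43 and 8.22. Tlr3 and Tlr5 were at the floor in all 3 mice. Cytosolic sensors and inflammasome genes were above the floor in all 3 mice in 9 of 9 cases, against 67.8% of all genes. Nod1 stood at 9.02, Casp1 at 7.98, Ripk2 at 7.81, Il18 at 7.46 and Nlrp3 at 7.05. The inflammasome adaptor gene Pycard read 5.31, 5.88 and 6.11, among the 10 widest ranges of all genes.

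Receptors for uptake spanned a wide range. Among 7 Fc receptor genes the inhibitory Fcgr2b was highest with 9.45, 9.59 and 9.71, followed by Fcgr3 with a mean of 9.22, Fcer1a and Fcgr4 with 7.91. Of 11 scavenger and phagocytic receptors, Cd68 and Cd36 led, the latter a receptor for oxidized lipids with 9.93, 10.32 and 10.20, while Marco stood at 7.54 and Olr1 at the floor. Of 7 formyl peptide receptors only Fpr1 and Fpr2 were above the floor, at 6.48 and 5.41. Genes of cathepsins and lysosomal proteins had a median of 9.62 over 11 members. Ctsd read 12.79, 12.91 and 12.86, Ctss 12.56, 12.92 and 12.83 and Ctsz 11.00, 11.03 and 10.99. Ctsa was above the floor in mouse 2 only (4.86). Of 7 oxidase genes, 5 were at the floor (Nox1, Nox3, Nox4, Duox1 and Duox2), against 25.1% of all genes. Cybb of the phagocyte enzyme stood at 11.74.

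Energy metabolism genes were measured for both main routes. Respiratory chain and ATP synthase genes were above the floor in all 3 mice in 18 of 18 cases, against 67.8% of all genes. Their median was 9.65 and 7 were in the top 10%. Cox6a1 of cytochrome oxidase read 11.81, 11.92 and 11.91, and Cox5b, Cox7c and Ndufa1 had means of 10.89, 10.88 and 10.80. Glycolysis and pentose phosphate genes had a median of 8.70 over 20 members, also with 7 in the top 10%. After Gapdh, Aldoa and Ldha came Taldo1 with 10.92. Among isoforms, Hk1 stood at 9.55, Hk3 at 7.93 and Hk2 at 6.84. Each has its own probe, so the Hk values do not settle an order of transcript abundance. Pfkl was at 9.37 and Pfkm at 4.36. The 5 reference genes had means of 13.97 for Gapdh, 9.61 for Gusb, 8.34 for Tfrc, 7.53 for Pgk1 and 7.40 for Hprt. Tfrc, the transferrin receptor, was the least steady of these, with 8.09, 8.64 and 8.30.

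Stimulus-responsive genes covered the whole scale. Immediate-early genes had a median of 8.71 over 16 members, of which 1, Fosl1, was at the floor. Fos read 13.29, 13.19 and 13.13, Dusp1 11.95, 11.98 and 11.98 and Myc 11.21, 11.13 and 11.10. Btg2 and Atf3 had means of 9.93 and 9.86, and Egr2 was low at 4.74. Interferon-stimulated genes had a median of 6.10 over 18 members. Ifi27l2a was highest with 10.55, 10.76 and 10.74, and Irf1 and Oas1a had means of 10.02 and 8.61. The strongly inducible genes Cxcl9, Cxcl10 and Usp18 were at the floor in all 3 mice, and Isg15 and Ifit1 had means of 4.95 and 4.45. Cell cycle genes had a median of 6.25 over 12 members. Ccnd1 was highest at 9.75, Tyms, the cell cycle inhibitor gene Cdkn1a and Mki67 followed with 7.99, 7.77 and 7.06, and Birc5 was at the floor.

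The prostaglandin and leukotriene system is the one that the agent of the series acts on, through the EP2 receptor for prostaglandin E2. Of its 28 symbols, 18 were above the floor in all 3 mice, against 67.8% of all genes, and 8 (28.6%) were at it, against 25.1%. Both shares are near those of all genes. The median was 5.61, and Ptgdr2 and Gpr44 among the 8 at the floor stand for the same gene. Ptgs1, the constitutive cyclooxygenase, read 10.41, 10.58 and 10.47, while the inducible Ptgs2 read 6.58, 6.73 and 6.41, with no overlap between the genes. Alox5, the 5-lipoxygenase, read 10.21, 10.23 and 10.24, with its partner Alox5ap at 9.51 and the leukotriene A4 hydrolase gene Lta4h at 9.19. Tbxas1, the thromboxane synthase, had a mean of 9.56, and the inducible prostaglandin E synthase gene Ptges 5.69. Ptger2, which encodes EP2, read 5.44, 5.57 and 5.75. Among the genes of the other receptors for prostaglandin E2, Ptger4 read 7.18, 7.58 and 7.09, Ptger3 5.23, 5.16 and 5.37, and Ptger1 was at the floor. Ptger4 lay above Ptger2 in 3 of 3 mice, but the genes have different probes and lie in different gene sets. The values therefore do not settle an order of transcript abundance. The prostaglandin D2 genes Ptgds, Ptgdr and Ptgdr2 were at the floor with Hpgds, as was the platelet lipoxygenase gene Alox12.

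Most interleukin genes were at the floor and most interleukin receptor genes above it. Of 25 interleukins, 14 were at the floor in all 3 mice, against 25.1% of all genes. Among the 14 were Il3, Il5, Il13, Il17a, Il12b, Il23a, Il33 and the receptor antagonist gene Il1rn. Il6 was highest with 7.26, 7.70 and 7.57, followed by Il18 with 7.40, 7.44 and 7.54, Il1a with a mean of 5.94 and Il1b with 5.72. The ranges of Il6 and Il18 overlapped. Of 19 interleukin receptors only Il1r2 and Il22ra2 were at the floor in all 3 mice, and the highest were Il6ra, Il10rb, Il10ra and Il4ra with 10.10, 9.94, 8.81 and 8.34. The median of the receptor genes was 6.49 and that of the interleukins lay at the floor. The type II interferon gene Ifng stood at 4.99, Ifna1 at 6.38 and Ifnb1 at 4.48.

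Chemokine genes were divided within families. Of 21 CC chemokines, 10 were at the floor in all 3 mice, against 25.1% of all genes. Ccl1, Ccl8, Ccl11, Ccl12, Ccl17, Ccl19, Ccl25 and Ccl26 are examples. Ccl9 read 11.08, 11.24 and 11.24, Ccl24, an eosinophil attractant, 10.22, 10.23 and 10.23, Ccl5 10.11, 10.09 and 10.09 and Ccl3 9.62, 9.71 and 9.64. In the group of monocyte attractants, Ccl2 had a mean of 8.70 and Ccl7 of 6.61, with Ccl8 and Ccl12 at the floor. Ccl3 and Ccl4, which are often induced together, stood at 9.66 and 4.85. Of 14 CXC, XC and CX3C chemokines, 6 were at the floor, including Cxcl3, Cxcl5, Cxcl9, Cxcl10 and Cxcl11, while Pf4, Cxcl13, Cxcl2 and Cxcl1 had means of 10.50, 10.29, 9.82 and 8.28. Among 17 chemokine receptors, Cxcr4 was highest with 11.44, 11.32 and 11.29, followed by Ccr7, Cxcr5 and Ccr1 with 10.75, 9.81 and 9.69.

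Classes of matrix, cell junctions and liver were also mostly at the floor, beside the granulocyte, terminal complement and interleukin genes above. All 8 ADAMTS proteases and all 6 cadherins on the panel were at the floor in all 3 mice, among them Adamts1, Adamts4, Cdh1, Cdh2, Cdh5 and Cdh11. Of 13 collagens 11 were at the floor, with Col6a2 the highest at 4.67. Of 5 laminins 4 were at the floor, and the exception was Lamc1 with 8.15, 8.15 and 8.09. Of 8 matrix metalloproteinases 5 were at it, and Mmp19, Mmp3 and Mmp9 had means of 5.53, 5.20 and 5.05. Of 8 apolipoproteins 6 were at the floor, including Apoa1, Apoa2, Apob and Apoc3, against 13.54 for Apoe and 7.58 for Apoc2. Cytochrome P450 genes had 4 of 7 members at the floor, and fibroblast growth factors 4 of 5. Of 37 transcripts of the liver 26 were at the floor, such as Cps1, Ttr, G6pc, Pck1 and Hnf4a, and the highest were Arg1 and Ass1, at 8.43 each, enzymes that macrophages also use. The background was 25.1% of all genes, and the lists of cadherins, laminins, ADAMTS proteases, apolipoproteins, fibroblast growth factors, formyl peptide receptors, oxidases and liver transcripts were drawn up after the values were seen, so their counts are descriptions. In all, 15 of the 51 lists with at least 5 measured members had their median at the floor, and 13 had no member at it in all 3 mice. The 15 include all 8 lists drawn up after the values were seen, so that of the other 43 lists 7 had their median at the floor. These 43 were also chosen with earlier results of these data known.

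Spread between the mice was small and depended on the level. The median SD of the 982 genes above the floor in all 3 mice was 0.099, with quartiles of 0.058 and 0.155. It was 0.065 without mouse 1, 0.085 without mouse 2 and 0.097 without mouse 3. Below a mean of 6, the pooled SD between mice was near that of counting alone, 0.213 against 0.263 under 5 and 0.231 against 0.206 from 5 to 6. Above a mean of 10 it was 0.0887 against 0.0311, a ratio of 2.86. These counting errors rest on the inferred count equivalents and leave out any other error. Genes with a value at the floor in any mouse were left out, which narrows the SD between mice near the floor. The lowest bands therefore do not show whether the mice differ by more than counting. Only 2 genes had a range over 1 and 60 a range over 0.5. C1s, a complement protease, read 4.72, 6.12 and 4.89, and stood out by mouse 2. Mapk11, the p38-beta kinase, read 5.79, 4.64 and 5.23. Among the 679 genes above 100 linear units in all 3 mice, Tfrc was among the 10 with the widest ranges, and of the 30 highest genes Npm1 had the widest.

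**Figure D5:**
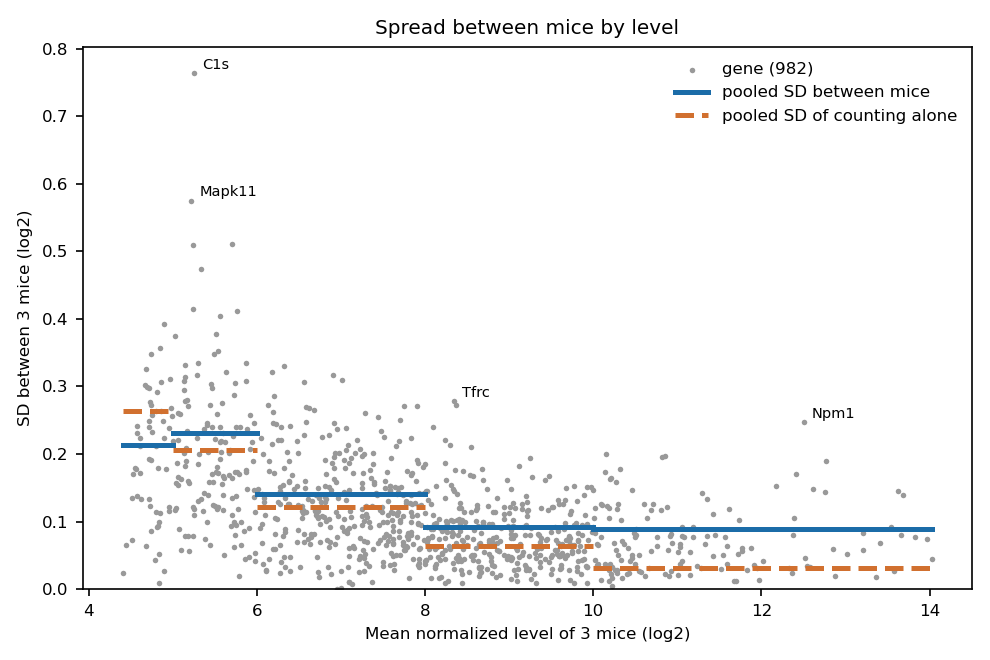
SD between the 3 mice (log2, y axis) against mean level (log2, x axis) for the 982 genes above the floor in all 3, with the pooled SD between mice as solid lines and the pooled SD of counting alone as dashed lines in 5 bands of level. The lines lie close together below 6 and part above 10, at 0.0887 and 0.0311.

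In some lists most members differed between the mice in the same direction. Mouse 1 was the lowest of the 3 in 43.7% of the 982 genes and mouse 2 in 28.8%. Within the first gene set mouse 1 was the lowest in 53.8%, and within the second set mouse 2 was in 42.1%. Mouse 1 was the lowest for 17 of 18 respiratory chain genes, all of the first set, and for 15 of them after each mouse was centred within each gene set, when the share over all genes was 46.6%. It was the lowest for 1 of 15 immediate-early genes above the floor in all 3 mice, and for 2 after centring. Of these genes, 12 lie in the second set and 2 in the third, where mouse 1 was the lowest in 32.1% and 27.5%. Mouse 2 was the lowest for 8 of 9 MHC class II genes, of which 8 lie in the second set, and for 7 after centring. For MHC class I, mostly of the second set as well, it was the lowest for 9 of 12 genes and for 6 after centring. The size was modest: the median respiratory chain gene read 9.56, 9.74 and 9.65 in the 3 mice, and the median MHC class II gene 10.35, 10.12 and 10.21. Members of 1 gene set share a scaling factor, and no test over the members was made.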

How the data were processed

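Peritoneal macrophage RNA was measured on the NanoString nCounter in 12 samples, of which the 3 young untreated mice were analysed, numbered as in their titles. The deposited values are normalized by the authors and on the log2 scale. The submitters' processing notes name limma without a version or role. How background, scaling and the floor were set, and how probe sets were joined, is not given in the sources read. Of 1448 symbols, 1431 are current and 14 are synonyms in RefSeq's gene table for GRCm38.p6.

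Means, SDs, ranks and shares were computed with Python 3.11.15, numpy 2.4.6 and pandas 2.3.3. Values at the floor of 20 linear units counted as 0 in shares of signal. The step of each gene set was searched in each mouse, and 3101 of 3102 values above the floor lay on a multiple within 0.008 linear units. On simulated data the search recovered 90 of 90 steps. Counting error was taken as the square root of the count equivalents, and covers counting only. No test was run, since a single group has no contrast. SDs measure the spread of 3 mice. The members and the lists were chosen with earlier results of these data known. Named genes are the 30 highest, the 10 highest of each gene set, the 4 highest of each list, up to 8 floor members of a list mostly at the floor, the 10 widest ranges and genes under 2 symbols; a few of them are left out of the text, while counts and medians include them.

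The alternatives were leaving out each mouse, a common floor of 100, merged symbols, linear means, medians, scaled gene sets, count equivalents, quantile normalization and centred mice. Centring within gene sets was added after seeing the data. Drawings used matplotlib 3.10.9.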

Additional observations from a re-analysis of the deposited data

How the results depend on the processing

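A common floor of 100 raised the number of genes at the floor in all 3 mice from 363 to 732 and lowered the median SD from 0.099 to 0.078. The share of signal in the 20 highest genes was 29.3% with floor values counted as 20 and 30.6% with the gene sets scaled to 1 median, against 29.7%. With members above the floor in a mouse only, 0 lists had their median at the floor, which follows from leaving the floor genes out, and it gave no value for cadherins and ADAMTS proteases. When each mouse was left out in turn, genes at the floor ran from 375 to 385, genes above it from 993 to 1011, the share from 29.6% to 29.9% and lists with their median at the floor from 15 to 16. All 30 highest genes remained among the 30 highest then. The median SD ran from 0.065 without mouse 1 to 0.097, and a median SD of 2 mice is lower than that of 3 by construction. Count equivalents kept 29 of the 30 highest genes, with Cebpb in place of Dusp1, and put Gapdh before Fn1. Depth limits the ranking near the floor, at 17.6 to 26.8 count equivalents.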

Other observations

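Transcription factors of immune signalling were measured across the middle and upper ranks. Of 7 STAT genes none was at the floor in all 3 mice, against 25.1% of all genes. Stat6, which signals for interleukin-4 and interleukin-13, was highest with 10.45, 10.51 and 10.42. Stat3 followed with 10.21, 10.19 and 10.19, and Stat5b had a mean of 8.46. Il4 itself had a mean of 4.76 and Il13 was at the floor, while their shared receptor chain Il4ra stood at 8.34. Among 7 interferon regulatory factors, Irf1, Irf5, Irf4 and Irf2 had means of 10.02, 9.93, 9.23 and 9.03, and Irf3 was above the floor in mouse 1 only (4.35). The 7 NF-kappaB subunits and inhibitors had a median of 8.65, with Nfkb2 and Nfkb1 at 10.02 and 9.58.

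Growth and adhesion genes were measured in several families, where the counts at the floor stand beside 25.1% of all genes. Of 10 TNF superfamily ligands, 4 were at the floor (Cd70, Tnfsf4, Tnfsf9 and Tnfsf10), Ltb read 10.03, 10.35 and 10.25 and Tnf 6.24, 6.29 and 6.28. Of 13 TNF receptor genes 3 were at the floor, and Tnfrsf1a was the highest with 8.20, 8.22 and 8.29. The growth factor genes Csf2, Csf3 and Kitl were at the floor, and Csf1 and Osm had means of 6.14 and 8.33. Of 24 solute carriers 8 were at the floor, including Slc7a11, and Slc3a2, Slc1a5 and Slc16a3 led with 8.99, 8.67 and 8.03. Of 11 integrins 1 was at the floor, and Itgb1, Itgb2, Itgam and Itga4 led with 12.75, 12.58, 12.39 and 9.87. The killer cell lectin-like receptor genes Klrd1, Klrk1 and Klrb1a had means of 8.38, 7.70 and 5.48, and of 4 C-type lectins only Clec7a, the receptor for beta-glucan, was above the floor, at 5.91.

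Of the 103 genes above the floor in 1 or 2 mice, the highest single values were 5.22 for Cyp4a12a in mouse 3 and 5.16 for Pfkfb1 in mouse 2. Chil4 and Il15 were at the floor in mouse 2 only. These values lay at 31 to 50 count equivalents.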
